A study of Mus musculus with 8 samples.

Results

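The cytosolic ribosomal proteins are the protein components of the ribosome outside mitochondria, and their genes were taken from the deposited table by symbol: Rpl, Rps or Rplp followed by a number, with at most a closing a, x or y, and Rpsa. The rule found 51 genes among the 20667 genes with a symbol, 27 of the large subunit and 24 of the small subunit. They were measured by 112 probe sets, with 26 genes read by 1 probe set and 25 by several, up to 6. A probe set is a group of short array probes against a transcript, and each gene is represented by its brightest probe set, judged by the mean of all 8 arrays. The RefSeq table lists 76 protein-coding mouse genes whose symbols meet the rule. Another 15 of them were read by probe sets that carry an accession and no symbol, and they are described apart from the 51.

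The arrays compared the tibial plateau of the knee, articular cartilage together with subchondral bone, between 4 wild-type mice of strain C57BL/6 and 4 mice labelled ANP32A KO, all aged 8 weeks. ANP32A is a nuclear phosphoprotein. The labels give no strain, allele or deleted exon for the knockout mice, name no other treatment, and number each array as a separate mouse. P-values set the difference between the genotypes against the spread between these samples within a genotype.

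Each ribosome joins a small subunit, which holds the mRNA and reads its codons, to a large subunit, which forms the peptide bonds. Ribosomal protein mRNAs are among the most abundant of every nucleated cell. In mammals they begin with a terminal oligopyrimidine (TOP) tract, a run of C and T letters at the start of the transcript, through which mTORC1 and the binding protein Larp1 control their translation together. Dividing marrow cells, such as the precursors of red cells and of B cells, make ribosomes at a high rate. In human, loss of 1 copy of several of these genes causes Diamond-Blackfan anaemia, a failure of red cell production.

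The start regions of members are shown because the TOP tract and the promoter are what these genes are known to share. RefSeq windows of GRCm38.p6, 250 bases before to 50 after the annotated start, were available for 41 of the 51 genes. The 5 windows printed belong to the members at an unadjusted p under 0.05 for which a window was held, 4 with a higher and 1 with a lower reading in the knockout. Each runs from 120 bases before the start to base 30 of the transcript. Capitals mark the longest run of C and T letters between 50 bases before the start and base 30, and any match to CCGGAAG, a core motif of ETS factors such as GABP, on either strand.
Rpsa, chr9:120127646-120127795, plus strand: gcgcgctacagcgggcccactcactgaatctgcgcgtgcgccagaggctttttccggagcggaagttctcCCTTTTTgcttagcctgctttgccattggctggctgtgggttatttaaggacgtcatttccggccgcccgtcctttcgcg
Rpl35, chr2:39005102-39005251, minus strand: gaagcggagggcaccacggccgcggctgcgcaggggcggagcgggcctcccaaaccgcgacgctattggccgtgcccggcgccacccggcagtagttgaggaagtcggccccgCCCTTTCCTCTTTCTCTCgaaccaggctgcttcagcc
Rpl12, chr2:32961592-32961741, plus strand: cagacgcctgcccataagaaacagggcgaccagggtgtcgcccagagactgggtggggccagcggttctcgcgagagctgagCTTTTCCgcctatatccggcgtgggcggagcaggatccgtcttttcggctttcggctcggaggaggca
Rplp2, chr7:141447531-141447680, plus strand: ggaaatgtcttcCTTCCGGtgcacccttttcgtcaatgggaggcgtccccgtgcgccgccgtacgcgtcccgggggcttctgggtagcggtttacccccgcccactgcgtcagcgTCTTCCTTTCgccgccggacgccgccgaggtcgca
Rps25, chr9:44407594-44407743, plus strand: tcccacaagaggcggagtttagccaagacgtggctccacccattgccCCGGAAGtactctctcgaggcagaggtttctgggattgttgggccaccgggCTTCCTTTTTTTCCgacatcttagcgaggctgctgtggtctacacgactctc

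The marked run was 18 letters long in Rpl35, 14 in Rps25, 10 in Rplp2 and 7 in Rpsa and in Rpl12. It spans the annotated start in Rpl35 and Rplp2, and lies wholly before it in Rpsa, Rpl12 and Rps25. In Rpsa the run begins at the upstream edge of the searched stretch. C and T letters continue before that edge, so the 7 letters are a cut length. A marked run need not reach the start, so its length does not measure the TOP tract. Over the 41 members with a window the median of the longest run was 10 letters, against 6 over all 27025 genes with a window. A run of at least 10 letters was found in 51.2% of these members and in 17.3% of all genes. CCGGAAG lay in the window of 43.9% of the members and of 9.93% of all genes, and AAGATGG, the core of the YY1 motif, in 17.1% and 7.28%, both strands counted. These matches describe letters in annotated windows and show no binding. Of the 5 windows printed, those of Rplp2 and Rps25 hold CCGGAAG.

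No ribosomal protein gene passed the threshold between the genotypes. Their readings nevertheless lay on 1 side: 45 of the 51 had a higher mean in the knockout (88.2%), where 53.8% of all genes did. The median log2 difference, knockout minus wild type, was 0.097 over the members and 0.013 over all genes. Differences ran from -0.22 to 0.25, and the middle 50% of the members lay between 0.060 and 0.13. All levels are log2 values made by RMA (robust multi-array average, which sets all arrays to the same distribution), and tests are limma fits over all genes with Benjamini-Hochberg adjustment and a threshold of 0.05. Over all genes 11 passed (0.0532%), and over the members 0, with a smallest adjusted p of 0.169. At an unadjusted p under 0.05 the members counted 6 higher (11.8%) and 1 lower (1.96%), against 10.1% and 9.26% of all genes, so the share of higher readings at that level was close to the background. The knockout arrays lay above every wild-type array for 8 members (15.7%, background 4.61%), and below every wild-type array for 1 (background 5.42%).

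**Figure D1:**
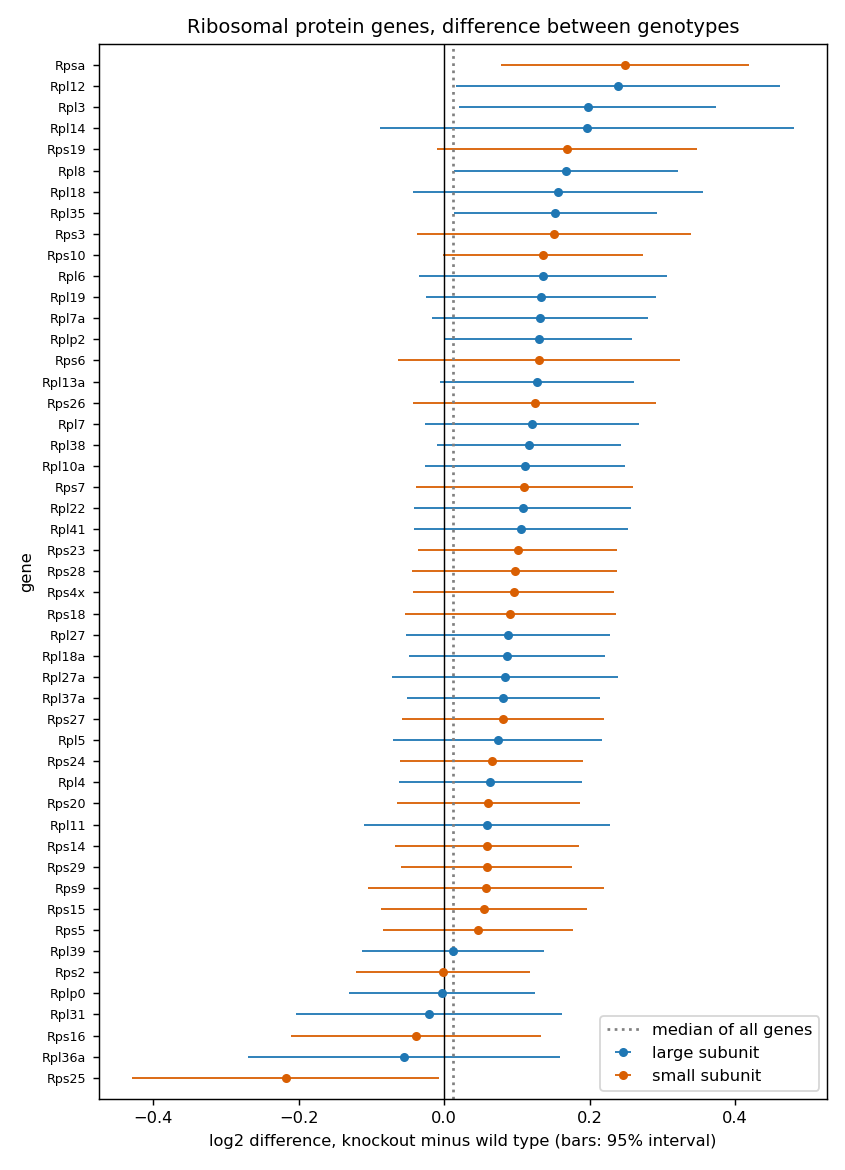
Log2 difference between knockout and wild type for 49 of the 51 ribosomal protein genes (points, blue for the large and orange for the small subunit), with the 95% interval of the limma fit (bars, n = 4 per group) and the median of all genes (dotted line). Of the 49 points, 43 lie to the right of 0, most of them with intervals that span 0, and Rps25 lies farthest to the left at -0.22.

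The large subunit had a median difference of 0.11, with 24 of 27 genes above 0, and the small subunit 0.086, with 21 of 24 above 0. Members varied little between mice of 1 genotype. The median SD within genotype was 0.067 over the members, against 0.13 over all genes.

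The shift was carried unevenly by the arrays. Each gene was centred on its mean over the 8 arrays and the 51 centred values were averaged on each array. The wild-type arrays read -0.030, 0.0035, -0.072 and -0.085, and the knockout arrays -0.0002, 0.12, 0.085 and -0.020, in the order 1 to 4. Knockout 2 and knockout 3 stood above all other arrays, while, over both subunits, knockout 1 and knockout 4 lay within the wild-type range, between wild type 1 and wild type 2. On knockout 2 and knockout 3, 45 and 47 of the 51 genes lay above their own mean, against 22 and 17 on knockout 1 and knockout 4 and 3 to 23 on the wild-type arrays. Both subunits followed the same order of arrays at the top, the large at 0.12 and 0.093 and the small at 0.11 and 0.075 on knockout 2 and knockout 3. For the large subunit knockout 1 (0.011) also lay above all wild-type arrays, the highest of which read -0.0037, whereas for the small subunit it did not. Without knockout 2 and knockout 3 the median difference of the members was 0.037, with 41 of 51 above 0 (52% of all genes) 0 members called (0.00484% of all genes), and no member at an unadjusted p under 0.05 in either direction (3.09% of all genes on the higher side).

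**Figure D2:**
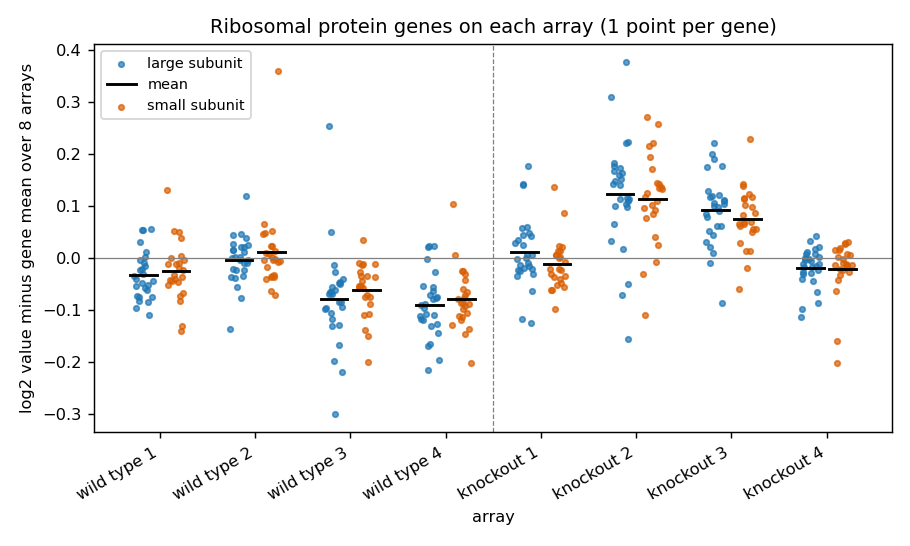
Log2 value minus the gene's mean over 8 arrays, for each ribosomal protein gene (points) on each array, with the mean of each subunit (black lines). The means of both subunits stand highest on knockout 2 (0.12 and 0.11) and knockout 3 (0.093 and 0.075), and knockout 4 lies within the wild-type range for both subunits.

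Knockout 2 and knockout 3 also stood apart over all probe sets, at 44.0 and 44.5 on the first principal component (52.8% of the variance), against -36.8 to 11.3 for the other arrays. Marker lists of other cells in the piece also differed between arrays, and of those given here the skeletal muscle list was lowest on knockout 2 and knockout 3. All 12 skeletal muscle markers were present on all 8 arrays and had a lower mean in the knockout; their centred mean was 0.27 to 0.41 in wild type, and 0.049, -1.04, -0.56 and 0.23 on knockout 1 to 4. Erythroid markers, 11 of 12 measured and all present on all arrays, read 0.32, -0.31, -1.26 and -0.43 in wild type and 0.98, 0.47, 0.71 and -0.48 in knockout. Of the B cell markers (12 of 12 measured), 8 were present on all arrays and 1 was absent on all. They ranged from -0.39 to -0.11 in wild type and read 0.15, 0.062, 0.80 and -0.021 on knockout 1 to 4. Of the proliferation markers (12 of 12), 11 were present on all arrays and 1 was absent on all. They ranged from -0.67 to 0.079 in wild type and read 0.42, 0.34, 0.52 and -0.22 on knockout 1 to 4. In these 3 lists knockout 1 read higher than knockout 2. Neutrophil markers (10 of 12 measured) lay at -0.41 to 0.14 in wild type and read 0.078, 0.20, 0.46 and -0.17 on knockout 1 to 4. Osteoblast and osteocyte markers (10 of 11) lay at -0.21 to -0.056 in wild type and read -0.011, 0.28, 0.17 and 0.11. The neutrophil list and the osteoblast and osteocyte list were thus highest on knockout 2 and knockout 3. Of the adipocyte markers (7 of 8 measured), 6 were present on all arrays and 1 was absent on all. They lay at -0.32 to 0.48 in wild type and -0.35 to 0.69 in knockout. The part of these lists in the ribosomal protein differences was not tested, and fewer cells of a type and less RNA per cell cannot be told apart in such tissue. The cartilage markers, 12 of 12 and present on every array, ranged from -0.17 to 0.20 in wild type and -0.19 to 0.36 in knockout. The targeted gene was low in all 4 knockout arrays by the Anp32a probe set that parts the genotypes, which read 9.95, 9.91, 9.76 and 9.91 in wild type and 4.98, 4.05, 4.33 and 5.04 in knockout, while its other 2 probe sets differed by -0.45 and -0.51.

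**Figure D3:**
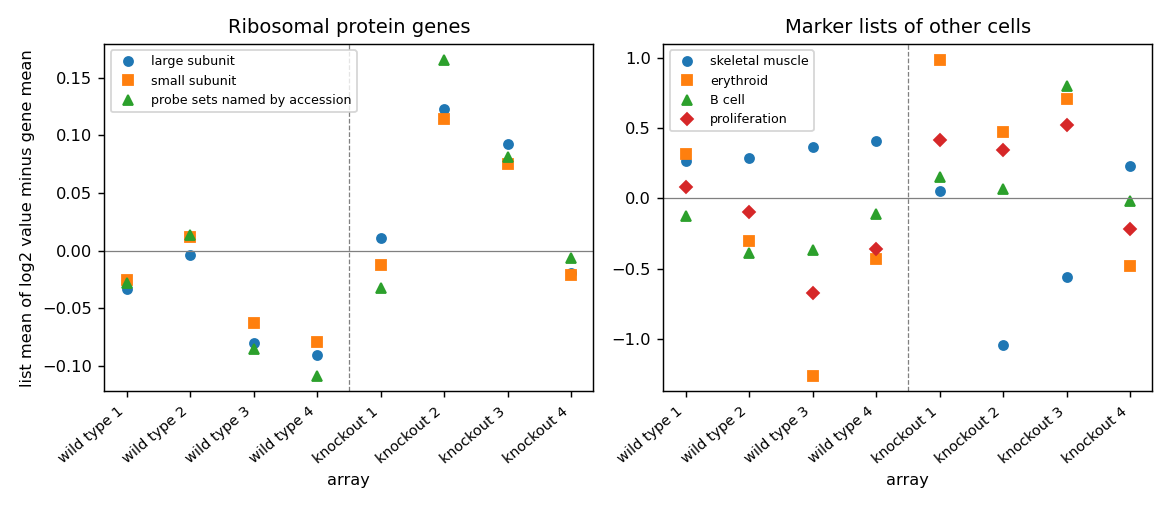
List means per array of log2 values centred on each gene's mean over 8 arrays, for ribosomal protein genes (left) and for marker lists of muscle, erythroid, B and dividing cells (right; the axes differ in scale). Ribosomal protein means are highest on knockout 2 and knockout 3, the arrays with the lowest muscle means (-1.04 and -0.56), while knockout 1 has the highest erythroid mean (0.98) and a ribosomal protein mean near 0.

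In the large subunit, Rpl3 and Rpl8 were named for their small p and stood among the members with larger differences. Rpl3, whose protein reaches towards the peptidyl transferase centre, read 13.84, 13.89, 13.73 and 13.72 in wild type and 13.94, 14.12, 14.07 and 13.85 in knockout. Knockout 4 lay below wild type 2, so the groups overlapped. The difference was 0.20 ± 0.079 (SE, n = 4 per group, limma adjusted p = 0.216). Rpl8, a neighbour of the same centre, read 13.28, 13.39, 13.29 and 13.26 against 13.44, 13.53, 13.56 and 13.35. Here too knockout 4 was the lowest knockout array and lay below wild type 2 (difference 0.17 ± 0.068, limma adjusted p = 0.224). Without knockout 2 and knockout 3 the differences of Rpl3 and Rpl8 were 0.097 and 0.093 (limma adjusted p = 0.807 and 0.802).

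Rpl4, which lines the tunnel through which the new peptide leaves, read 13.98 ± 0.036 in wild type and 14.04 ± 0.043 in knockout (SD, n = 4), a difference of 0.064. Rpl39, the small protein of the lower tunnel, was read by a dim probe set at 7.56 ± 0.050 and 7.57 ± 0.019, with a difference of 0.013. At the tunnel exit, Rpl35 read 13.91, 13.95, 13.85 and 13.92 in wild type and 13.99, 14.15, 14.10 and 14.001 in knockout. All 4 knockout arrays lay above all wild-type arrays (difference 0.15 ± 0.062, limma adjusted p = 0.223). Of its 6 probe sets 5 gave 0.15 to 0.19, and the dimmest, at 5.92 in both groups, gave 0.0019. Rpl19, another exit protein, differed by 0.13 with overlapping groups (limma adjusted p = 0.334).

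Rplp2, an acidic protein of the stalk that recruits elongation factors, read 14.21, 14.27, 14.24 and 14.25 in wild type and 14.37, 14.41, 14.43 and 14.30 in knockout, with no overlap (difference 0.13 ± 0.057, limma adjusted p = 0.251). Rplp0, the scaffold that anchors the acidic proteins, read 14.05, 14.04, 13.93 and 13.97 against 13.97, 14.02, 14.02 and 13.98. Its groups lay over each other (difference -0.0027, 95% interval -0.13 to 0.13, limma adjusted p = 0.987). The interval overlaps that of Rplp2, 0.0018 to 0.26, and the difference between the genes was not tested. Rpl12, which sits at the base of the stalk, was read at 8.70, 8.75, 8.41 and 8.52 in wild type and 8.85, 9.02, 8.72 and 8.73 in knockout (difference 0.24 ± 0.099, limma adjusted p = 0.229). Knockout 3 and knockout 4 lay below wild type 2. Rpl12 had a large spread within genotype for a member, with SDs of 0.16 and 0.14. A brighter Rpl12 probe set that carries only an accession read 13.18 ± 0.059 and 13.35 ± 0.12, a difference of 0.17 (limma adjusted p = 0.265 over all probe sets). Rpl14, the member with the largest spread, read 7.63 ± 0.16 and 7.82 ± 0.24, and its difference of 0.20 had a limma adjusted p of 0.432.

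Rpl5 and Rpl11, which form with the smallest ribosomal RNA a particle that binds Mdm2 when ribosome assembly fails, differed by 0.074 and 0.059 (limma adjusted p = 0.579 and 0.726). The other probe sets of Rpl5 went the other way, at -0.053 and -0.040. Rpl13a, a protein also known for silencing of inflammatory mRNAs in human cells, read 14.25 ± 0.052 and 14.38 ± 0.053 without overlap (difference 0.13, limma adjusted p = 0.276). Knockout 4 (14.309) and wild type 2 (14.308) were nearly equal, and on the gene's other probe sets the groups overlapped. Rpl41, a very short protein, read 14.40 ± 0.055 and 14.50 ± 0.085 and differed by 0.11 (limma adjusted p = 0.409). Rpl38, needed in mouse for translation of Hox mRNAs and picked here after its values were seen because its groups did not overlap, differed by 0.12 (limma adjusted p = 0.290).

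In the small subunit the largest difference belonged to Rpsa, the ribosomal protein first described as a laminin receptor precursor. It read 14.02, 14.12, 13.96 and 14.05 in wild type and 14.25, 14.38, 14.39 and 14.13 in knockout. All knockout arrays lay above all wild-type arrays, with knockout 4 just above wild type 2. The difference was 0.25 ± 0.076, with a 95% interval of 0.078 to 0.42 (limma adjusted p = 0.169, the smallest of the members). Without knockout 4 Rpsa passed (difference 0.30, limma adjusted p = 0.0419); it was the single member to pass in that fit, in which 8.64% of all genes did. Without knockout 2 and knockout 3 its difference was 0.15 (limma adjusted p = 0.736). The gene's other probe set was present on 0 arrays and differed by 0.052.

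Rps25, which helps initiation at certain internal entry sites, was the member with the largest lower reading. Its probe set read 9.22, 9.44, 9.03 and 9.09 in wild type and 9.02, 8.97, 9.02 and 8.88 in knockout. All knockout arrays lay below all wild-type arrays, although knockout 3 and wild type 3 were nearly equal. The difference was -0.22 ± 0.094 (limma adjusted p = 0.246), and a single probe set measured the gene. It was -0.24 without knockout 2 and knockout 3, and -0.13 without wild type 2, the highest array.

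**Figure D4:**
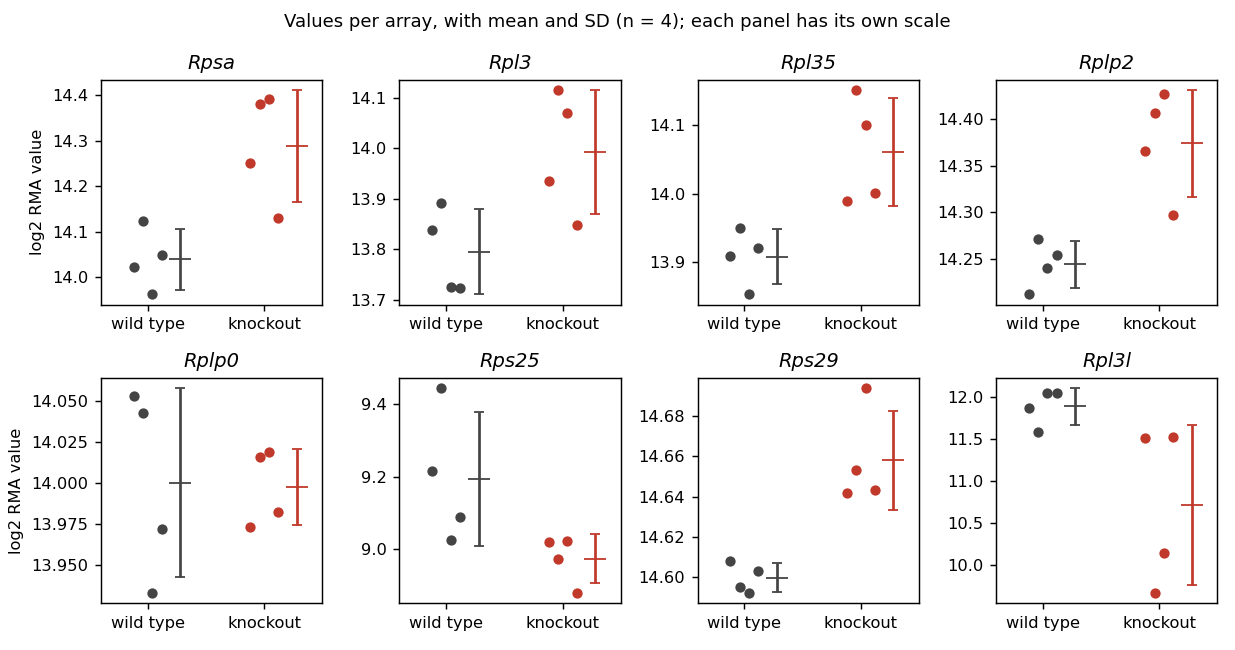
Log2 RMA values on each array (points, in the order of the mouse numbers) with the mean and SD of each group (n = 4) for 7 ribosomal protein genes and for Rpl3l; each panel has its own scale. Rpsa, Rpl35, Rplp2 and Rps29 lie higher on every knockout array, Rps25 and Rpl3l lower, and Rpl3 and Rplp0 overlap.

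Along the path of the mRNA, Rps2 at the entry read 14.15, 14.21, 14.15 and 14.13 in wild type and 14.16, 14.15, 14.17 and 14.15 in knockout, a difference of -0.0013 with a 95% interval of -0.12 to 0.12 (limma adjusted p = 0.993). Its partner at the entry, Rps3, read 13.61 ± 0.12 and 13.76 ± 0.12 (difference 0.15, limma adjusted p = 0.355). Rps23, which reaches into the decoding centre, differed by 0.10, and at the mRNA exit Rps26 differed by 0.12 and Rps28 by 0.097 (limma adjusted p = 0.397, 0.392 and 0.432). Rps29, a zinc-binding protein of the head, read 14.61, 14.60, 14.59 and 14.60 in wild type and 14.64, 14.65, 14.69 and 14.64 in knockout. Its difference of 0.058 ± 0.052 was small, and still no array of 1 group reached into the other (limma adjusted p = 0.592). Rps10 also showed no overlap, with a difference of 0.14 (limma adjusted p = 0.261).

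All 11 measured members among 14 genes linked to Diamond-Blackfan anaemia in human read higher in the knockout, from 0.058 for Rps29 to 0.17 for Rps19, and none passed. Of all 51 members, 45 read higher (88.2%). The median difference was 0.081 over these 11 and 0.097 over all members. Rps19, the gene most often affected in that disease, read 13.43, 13.44, 13.31 and 13.32 in wild type and 13.40, 13.72, 13.57 and 13.49 in knockout. Knockout 1 lay below wild type 2, and the adjusted p was 0.281 in the limma fit.

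The 6 members with a lower mean in the knockout were Rps25, Rpl36a, Rps16, Rpl31, Rplp0 and Rps2. For Rps16 the probe set was absent on all 8 arrays by the deposited detection calls (3.902 ± 0.073 and 3.86 ± 0.12), so it gives no level of the gene. Rpl36a was present on 0 wild-type and 1 knockout array (3.45 ± 0.16 and 3.39 ± 0.12), and Rpl31 on 1 and 2 (4.84 ± 0.037 and 4.82 ± 0.15). These 3 genes were also read by brighter probe sets that carry only a RefSeq accession, and there all 3 read higher in the knockout. The Rps16 probe set read 13.63, 13.69, 13.55 and 13.55 in wild type and 13.72, 13.87, 13.85 and 13.69 in knockout (difference 0.18 ± 0.070, limma adjusted p = 0.223 over all probe sets). Knockout 4 and wild type 2 both rounded to 13.69, and no knockout array lay below a wild-type array. The accession probe sets gave 0.18 for Rpl36a and 0.21 for Rpl31 (limma adjusted p = 0.305 and 0.372). For Rps2 the accession probe set gave -0.0032, close to the value above.

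In all, 26 probe sets without a symbol were named through their accession, for 15 further genes and 6 of the 51. Of these 26, 22 read higher in the knockout, with a median of 0.11 and a range from -0.031 to 0.35, and 0 of 26 passed over all probe sets (24 of 45037 did, 0.0533%). Rplp1, the other acidic stalk protein, read 14.38, 14.40, 14.34 and 14.31 in wild type and 14.45, 14.52, 14.50 and 14.43 in knockout, with no overlap (difference 0.11, limma adjusted p = 0.341). Rps27a, made as a fusion to ubiquitin, differed by 0.14, again with no overlap (limma adjusted p = 0.275). Rps13 was read by 3 such probe sets, which gave 0.35, 0.088 and -0.0022 (limma adjusted p = 0.142, 0.489 and 0.992), the first from a probe set at 7.11 ± 0.17 and 7.46 ± 0.085. With these probe sets added, 61 of 66 genes read higher, with a median of 0.11.

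Over the 112 probe sets of the 51 genes, 101 read higher in the knockout, with a median of 0.11 against 0.013 over all probe sets (54% of all above 0). At an unadjusted p under 0.05, 20 of the 112 were higher and 1 was lower. Of all 45037 probe sets, 4291 were higher (9.53%) and 3934 lower (8.74%) at that level. None of the 112 passed (smallest limma adjusted p = 0.163). When all probe sets of a gene were averaged instead, 44 of 51 genes read higher (53.3% of all genes) with a median of 0.11, and 0 passed (0.0581% of all genes). Probe sets of 1 gene are not independent, and 21 of the 25 genes with several had all of them on 1 side of 0. Rpl13a differed most among its 4 probe sets, from 0.11 to 0.36, followed by Rps6 (-0.11 and 0.13) and Rps24 (-0.098 to 0.12 over 6 probe sets). The lower Rps6 and Rps24 values came from probe sets at 4.77 and 6.47 in wild type, the latter with no present call. Lower values of Rpl5 came from probe sets at 9.47 and 9.95 in wild type, present on every array. Rps6 is the substrate of the S6 kinases; its symbol-bearing probe set read 9.79 ± 0.080 and 9.92 ± 0.15, and its accession probe set differed by 0.16 (limma adjusted p = 0.277).

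Ribosomal protein genes have many processed pseudogenes with near-identical sequence, and probe sets with the suffix _x or _s hold probes shared with other transcripts by design. Of the 51 genes, 11 were represented by an _x and 2 by an _s probe set, so their values may include copies. With those probe sets left out, 47 genes were measured, 42 of them above 0, with a median of 0.11. Of the 51, 40 had a mean level above 13. The 202 other genes with a mean above 13 had a median difference of -0.0024, with 49.5% above 0 and a range from -1.10 to 0.67.

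Members moved together from mouse to mouse within a genotype. With each gene centred on its genotype means, the median Pearson correlation over the 1275 pairs of members was 0.70 over 8 arrays, and 35 of the 51 followed the mean of the others with r above 0.8. The arrays share normalization and tissue composition, so this is a description. Below 0 were 5 members, whose probe sets had group means from 3.39 to 8.77: Rpl27a (-0.58), Rpl36a (-0.45), Rpl39 (-0.25), Rps16 (-0.18) and Rpl31 (-0.023). Among the other genes closest to the member mean by the same measure were Fem1b (0.996), Rack1 (0.991), Mettl13 (0.990) and Soat1 (0.989). Rack1 is itself a protein of the small subunit. In all 405 of 20616 other genes had r above 0.9 by this measure, a description over the same 8 arrays. At the opposite end, and named after their values were seen, stood Oxnad1 (-0.998), Ndufa13 (-0.997), Ndufv3 (-0.996) and Mdh2 (-0.996), the last 3 encoding mitochondrial proteins.

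The ribosomal proteins that the symbol rule leaves out read in the same direction. Fau, a fusion whose product carries a small-subunit protein, read 13.39, 13.45, 13.37 and 13.39 in wild type and 13.58, 13.62, 13.75 and 13.46 in knockout, with no overlap (difference 0.20 ± 0.071, limma adjusted p = 0.186). Rack1 differed by 0.16 (limma adjusted p = 0.306). Rps3a1 differed by 0.11 (limma adjusted p = 0.377).

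Of the 6 paralogs measured, 4 read higher and 2 lower in the knockout, with a median of 0.041. Rpl3l, which replaces Rpl3 in skeletal and heart muscle ribosomes, read 11.87, 11.58, 12.04 and 12.05 in wild type and 11.51, 9.67, 10.15 and 11.52 in knockout. Every knockout array lay below every wild-type array. Against wild type 2, the lowest wild-type array, knockout 2 and knockout 3 lay lower by over 1 log2 unit and the others by under 0.1. The difference was -1.17 ± 0.39 (limma adjusted p = 0.178), on the arrays where muscle markers were low, and -0.37 without knockout 2 and knockout 3 (limma adjusted p = 0.669). Rps27l, a paralog of Rps27 known as a p53 target, differed by -0.13 ± 0.058 with no overlap (limma adjusted p = 0.267), and its other 2 probe sets gave -0.14 and -0.085. Rps27 itself was read by a probe set at 7.27 ± 0.075 and 7.35 ± 0.041 and differed by 0.081. Rpl22l1, Rpl39l, Rpl7l1 and Rps4l differed by 0.045, 0.11, 0.036 and 0.087 with overlapping groups (limma adjusted p = 0.788 to 0.916).

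Other parts of the translation machinery were compared through lists, in which no gene passed. Elongation factors had 6 of 8 genes above 0 and a median of 0.049. Eef1b2, an exchange factor of the elongation step, differed by 0.17 (limma adjusted p = 0.211), while Eef1a2, the isoform of muscle and neurons, differed by -0.90 with no overlap (limma adjusted p = 0.195), reading 9.76 on knockout 2 and 10.37 on knockout 3 against 11.50 to 11.75 in wild type. Among 12 listed other mRNAs with a TOP start, 10 were above 0 with a median of 0.092, close to that of the ribosomal protein genes. These 12 include none of the 8 elongation factors, and whether those also begin with a TOP tract was not assessed. The median of 0.092 therefore describes the listed genes and not all TOP mRNAs. Eif4b, an RNA helicase cofactor, read 11.64, 11.64, 11.69 and 11.60 in wild type and 11.82, 11.77, 11.83 and 11.75 in knockout, without overlap (difference 0.15 ± 0.056, limma adjusted p = 0.193), and Hnrnpa1, an RNA-binding protein, differed by 0.18 (limma adjusted p = 0.207).

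Initiation factors had 12 of 22 genes above 0 and a median of 0.016. Eif4e, the cap-binding protein, was the gene of smallest p among all these lists. It read 11.39, 11.48, 11.36 and 11.39 in wild type and 11.12, 11.14, 10.97 and 11.14 in knockout, all lower than wild type (difference -0.31 ± 0.064, limma adjusted p = 0.159). Eif4h, another helicase cofactor, differed by 0.17 (limma adjusted p = 0.209). Ribosome assembly factors had 21 of 33 genes above 0 and a median of 0.020, with Nop16 at -0.21 and Wdr12 at -0.16 (limma adjusted p = 0.231 and 0.274), both factors of large-subunit assembly. Genes of RNA polymerases I and III and their factors had 13 of 17 above 0 and a median of 0.034. Among them Ubtf, which opens ribosomal DNA for polymerase I, differed by 0.24 with no overlap (limma adjusted p = 0.164), and the polymerase III subunit Polr3b by 0.30 with overlap (limma adjusted p = 0.169).

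The list of mTORC1 and Larp1 control had 4 of 17 genes above 0 and a median of -0.064. The mTORC1 inhibitor Deptor differed by -0.45, with overlap, and Akt1s1, another inhibitor of the complex, by -0.30 with no overlap (both limma adjusted p = 0.160). Without knockout 2 and knockout 3 the differences were -0.27 and -0.18 (both limma adjusted p = 0.713). At an unadjusted p under 0.05 the list held 1 gene higher (5.88%, against 10.1% of all genes) and 4 lower (23.5%, against 9.26%). The other 3 of these genes, named after their values were seen, were Tsc1, which restrains the complex, at -0.27, Rheb, its activator, at -0.20, and Eif4ebp2, a repressor of Eif4e, at 0.33 (limma adjusted p = 0.171, 0.180 and 0.183).

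**Figure D5:**
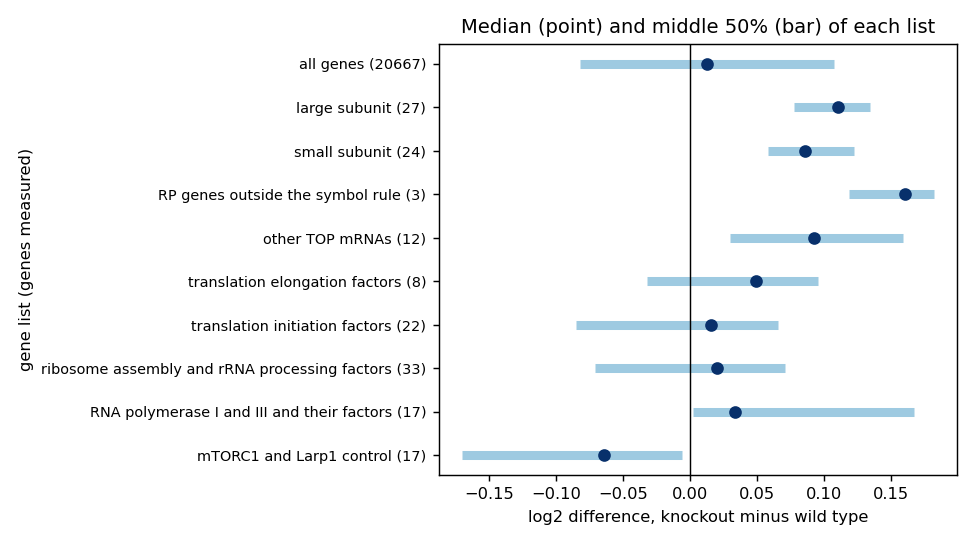
Median (points) and middle 50% (bars) of the log2 difference, knockout minus wild type, for all genes, each ribosomal subunit and the lists of the translation machinery, with the number of genes measured. The subunits (0.11 and 0.086) and the list of other TOP mRNAs (0.092), which holds none of the listed elongation factors, lie above the median of all genes (0.013). The 3 ribosomal proteins outside the symbol rule lie highest. Elongation factors, initiation factors, assembly factors and polymerases also lie above the median of all genes, but nearer to it (0.016 to 0.049). Only the list of mTORC1 and Larp1 control lies below the median of all genes.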

How the data were processed

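RNA of 8 mouse knee samples was measured on 1 array each. The deposited values are log2 values per probe set, made by the authors with RMA per the submitters' processing notes, with no version named there. RMA includes quantile normalization, which could mask a change shared by most genes. The 2 deposited tables are identical in their log2 values (45037 probe sets). Per the file headers, the table with statistics also gives symbols, detection calls, and the authors' log2 fold changes and p-values, which an unpaired limma refit returned to within 0.00114 in log10 p. It gives no symbol for 6889 probe sets and a date for 62, which stayed unnamed apart from the 26 named by accession through RefSeq (GRCm38.p6).

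Differences are knockout minus wild type, from two-sided moderated tests in limma 3.58.1 (lmFit and eBayes, run under R 4.3.3), with genotype alone in the model and no filter. The fit was tested on simulated data. The number of arrays limits the precision; 57.6% to 60.1% of probe sets were present on an array. Mice are numbered 1 to 4 in each genotype, and the labels state no pairing. The members, lists and tests were chosen with earlier results of these data known, so no count here is independent of them. Named members are, by rule, those of highest and lowest level per subunit, smallest p, largest and smallest SD and most divergent probe sets, members with a listed role, and 2 genes of smallest p per pathway list; paralogs and proteins outside the symbol rule were open to naming. A few genes that the rule selects are not reported here. The alternatives were a replicate block, repeated quantile normalization, other choices of probe sets, a filter on present calls, array weights, a mean-dependent prior, and leaving out arrays.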

Additional observations from a re-analysis of the deposited data

Results flagged for a closer look

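In the 50 groups of 4 arrays checked for a single distant array (named members and subunit means), 2 were found, and chance gives about 1 in 20. Rps28 read 14.42 on wild type 1, against 14.30 to 14.31 on the other wild-type arrays. Rps27 read 7.41 on knockout 2, against 7.32 to 7.33 on the other knockout arrays.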

How the results depend on the processing

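No ribosomal protein gene passed under any alternative except Rpsa without knockout 4, and the median of the members stayed above 0 in all of them. Leaving out 1 array gave 0 to 1 members called, and 1 to 1786 genes over all, against 11 with all arrays. The highest was without knockout 4, and leaving out any other array gave 1 to 6; the cause was not tested. With the replicate block 4 genes passed over all and 0 members. Same-numbered arrays correlated at 0.065, 0.51, -0.34 and 0.30 in their deviations from the group means. These values differ in sign and do not settle whether the numbers pair the samples. Without knockout 2 and knockout 3, 1 gene passed over all, the large subunit median was 0.044 and Rpl14 read -0.0045. Members near 0 turned sign: leaving out 1 array gave Rplp0 -0.025 to 0.015, Rps2 -0.010 to 0.015, Rpl39 -0.0051 to 0.031, Rpl31 -0.087 to 0.028, Rpl36a -0.11 to 0.021 and Rps16 -0.090 to 0.0082. Array weights gave 0.0041 for Rplp0 and 0.0025 for Rps2, and repeated quantile normalization -0.0035 for Rpl39. The probe sets named by accession, an alternative added after seeing the data, turned Rpl31 to 0.21, Rpl36a to 0.18 and Rps16 to 0.18, each through a brighter probe set. When each gene's probe sets were averaged, 11 members were higher at an unadjusted p under 0.05 (9.09% of all genes) and 0 passed. Members called absent or present on few arrays have no usable level.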
